A study of Mus musculus with 6 samples.

Results

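Wild-type peritoneal macrophages exposed to lipopolysaccharide (LPS) for 2 h were compared with unstimulated wild-type macrophages, gene by gene, on 2 of the 6 Affymetrix mouse arrays of the series. Each gene was represented by the probe set (a group of short probes against 1 transcript) that carried a single gene symbol and had the highest mean over the 6 arrays. A gene was kept if it reached, on any array, that array's own median over all probe sets, and 13587 of 18194 genes did so. All values are log2 expression levels from RMA, which corrects background, brings the arrays to common quantiles and summarises the probes of a set. A difference is the LPS level minus the unstimulated level on that log2 scale, so a difference of 1 is 2-fold. There was 1 array on each side, no difference here has a replicate or a test, and genes are described by the size of the difference. Wherever a gene is called higher or lower, it is so on these arrays, with no estimate of the spread between mice or cultures. Levels of different probe sets are not on one scale, so a level is read only against the same probe set on another array. At the floor itself, Leap2 and Ushbp1 were kept with a highest level of 3.18, and Col26a1, Opn4 and Dcst2 were left out with the same rounded level.

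The wild-type cells were macrophages that thioglycollate injection draws into the peritoneum of C57BL/6 x 129Sv mice, harvested and either left unstimulated or given 100 ng/ml LPS for 2 h or 4 h. The series also holds 3 arrays of cells from LysM-Cre+;Akirin2fl/fl mice of the same background, at 0, 2 and 4 h of LPS, called Akirin2 KO here. Cre from the lysozyme locus deletes the floxed gene in myeloid cells. The labels give neither the age of the mice, nor how many mice gave a sample, nor whether cells were pooled. Akirin2 itself read 7.43 unstimulated and 7.47 at 2 h in wild-type cells. The Akirin2 KO pair at 0 and 2 h shares no array with the wild-type pair and is set beside it, as a second measurement of the LPS difference in cells of another genotype. The wild-type 4 h array shares the unstimulated array with the 2 h comparison, so its levels are given only side by side.

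LPS, a glycolipid of the outer membrane of Gram-negative bacteria, binds the receptor Tlr4 with Cd14 and Ly96 on macrophages. The adaptor Myd88 leads from the receptor to the kinases that free NF-kB from its IkB inhibitors and to the MAP kinases, and the adaptor Ticam1 leads to Irf3, interferon beta and then the interferon-stimulated genes. In textbook accounts, primary response genes such as Tnf, Cxcl1 and the IkB genes are transcribed directly on NF-kB entry into the nucleus, while secondary response genes wait for newly made proteins.

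The cells carried the markers of macrophages on both arrays. Of 13 listed macrophage markers 12 were above the floor, and their summed level (a sum over the same probe sets, given to compare arrays and not lists) was 109.5 unstimulated and 108.1 at 2 h. Csf1r, the receptor of the macrophage growth factor, read 12.60 and 12.61, Lyz2 12.20 and 12.14, C1qb 12.37 and 12.23, and Adgre1, the F4/80 antigen, 8.96 and 8.94. The integrin gene Itgam read 3.47 and 3.27, near the array median. Of the listed markers of other cells, 4 of 10 for neutrophils were above the floor, with summed levels of 22.1 and 23.2; Elane, Mpo, Ltf and Ngp were below it. B cell markers (4 of 7 above the floor) summed to 18.0 and 16.8, T and NK cell markers (5 of 10) to 16.7 on each array, mast cell markers (4 of 6) to 12.3 and 12.6, eosinophil markers (2 of 6) to 6.87 and 7.23, and mesothelial and fibroblast markers (9 of 10) to 45.7 and 45.2. Dendritic cell and erythroid lists each had 1 gene above the floor. Over these 9 other lists 0 genes differed 2-fold between the arrays; the resident peritoneal macrophage list (9 of 9) summed to 70.0 and 69.2. In a bulk sample fewer cells of a type and less RNA per cell cannot be told apart. The 3′ minus 5′ level of control probe sets is a sign of RNA integrity and labelling. That of Actb was 4.22 unstimulated and 4.16 at 2 h in wild-type (4.64 and 4.50 in Akirin2 KO). That of Gapdh was 4.33 on both wild-type arrays (4.34 and 4.52 in Akirin2 KO). On each of these arrays the 3′ level was thus far above the 5′ level. The part of this in probe sets of a gene that disagree was not tested.

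After 2 h of LPS the level was 2-fold or more above the unstimulated one for 307 genes (2.26% of 13587) and 2-fold or more below it for 297 (2.19%). The 2 sides differed in their reach. At 4-fold there were 91 higher genes (0.67%) and 26 lower (0.191%), and at 8-fold 40 higher (0.294%) and 1 lower (0.00736%), Lpar6. The largest difference was 7.24 upward and -3.27 downward, and 95.6% of genes lay within 2-fold. The median level of the 307 higher genes was 5.46 unstimulated and 7.28 at 2 h, and that of the 297 lower genes 6.15 and 4.69. Before LPS 20 of the higher genes were below their array's median over all probe sets, where differences on the RMA scale are compressed. They were also chosen for passing 2-fold on single arrays, which favours larger differences. Whether those folds are understated or overstated was not tested. At 2 h 26 of the lower genes were below their array's median. Levels near the median are compressed too. Counting all levels less than 1 above the median or below it, there were 78 of the higher genes before LPS. At 2 h there were 108 of the lower genes. The balance of the 2 sides depended on scaling: the median difference over all genes was -0.07. With each array centred on the median of the genes above the floor (a shift of 0.15) the counts were 406 higher and 191 lower. The median difference was then 0.08, so neither scaling put it at 0.

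**Figure D1:**
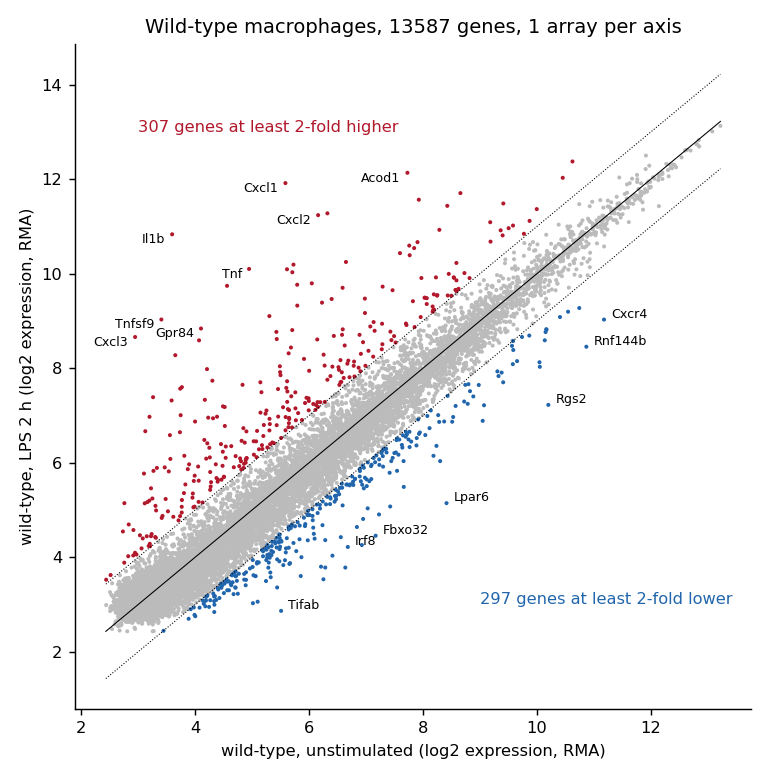
Level of each of 13587 genes on the unstimulated wild-type array (horizontal, log2 RMA) against its level after 2 h of LPS (vertical, log2 RMA), 1 array per axis. The solid line marks equal levels and the dotted lines 2-fold; the 307 higher genes (red) reach up to 7.24 above the solid line and the 297 lower genes (blue) up to 3.27 below it.

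Cytokine and chemokine genes were among those with the largest differences. Of 17 proinflammatory cytokine genes above the floor 10 were higher (58.8%) and 0 lower, with a median difference of 1.13 against -0.07 over all genes. Over all genes 2.26% were higher and 2.19% lower, and these shares stand beside every list count below. No list count was tested against them, and a count of 1 or 2 genes is too small to be read as a trait of a list. Il1b, which encodes the inactive precursor of a pyrogenic cytokine, went from 3.59 to 10.83, the largest difference of the 13587 genes (7.24, or 151-fold), and read 2.99 and 9.96 in Akirin2 KO. Tnf, the cytokine that macrophages release within the first hour, read 4.95 and 10.10 (4.19 and 9.69 in Akirin2 KO). Tnfsf9, a co-stimulatory ligand of the TNF family, read 3.41 and 9.03 (2.95 and 8.03). All 3 genes were higher on the LPS array of each pair.

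Il1a, the sister cytokine that signals through the same receptor as Il1b, differed by 4.63 in wild-type and 4.87 in Akirin2 KO. Il6, which drives the acute phase response of the liver, read 3.20 and 6.97, against 3.12 and 5.39 in Akirin2 KO. Lif, of the same cytokine family, differed by 2.23 in wild-type and 1.02 in Akirin2 KO. Csf1, Il12a, Il12b and Csf2 passed 2-fold by little (1.16, 1.13, 1.13 and 1.09). None of these 4 reached 2-fold in Akirin2 KO, where the differences were 0.81, -0.68, 0.07 and 0.35. With a gene's probe sets averaged, Csf1 stood at 0.37 and Il12b at 0.87. Here and below, an average takes all probe sets of a gene, also those below the floor on every array. Ifnb1, the interferon beta gene, read 2.88 and 3.24, and Il10 2.90 and 3.22, both near the array median. Of 7 cytokine inhibitors and anti-inflammatory cytokines 2 were higher, the soluble interleukin inhibitor Il1rn (1.15) and the TNF receptor Tnfrsf1b (1.64); both were under 2-fold with probe sets averaged (0.77 and 0.78).

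The neutrophil-attracting chemokines Cxcl1, Cxcl2 and Cxcl3 are neighbours on chromosome 5, and all 3 were among the 15 largest differences. Here and below, neighbours or adjacent genes are next to each other among the 13556 genes above the floor with a RefSeq place. Genes outside that set may lie between them. Cxcl1 read 5.58 unstimulated and 11.92 at 2 h (80.7-fold), with its other probe sets differing by 6.23 to 6.37. Cxcl3 read 2.94 and 8.66, and Cxcl2 6.16 and 11.24. In Akirin2 KO the differences were 6.10, 5.49 and 4.36. The other listed members of this chemokine group, Cxcl5, Ppbp and Pf4, differed by 0.63, 0.55 and -0.10. The stretches of the 3 promoters around their NF-kB consensus are shown because the 3 genes differ together and hold the same match. They are from RefSeq (GRCm38.p6), read 5′ to 3′ on the gene's strand, and capitals mark the bases covered by the consensus on either strand.
Cxcl1: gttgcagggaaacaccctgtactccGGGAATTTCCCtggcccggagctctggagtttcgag
Cxcl3: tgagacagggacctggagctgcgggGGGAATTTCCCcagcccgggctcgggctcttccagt
Cxcl2: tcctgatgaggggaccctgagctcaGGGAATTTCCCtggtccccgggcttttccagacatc
They lie at chr5:90891149-90891209, chr5:90786003-90786063 and chr5:90903777-90903837, all on the plus strand. The match covers bases -71 to -61 before the start of Cxcl1, -73 to -63 of Cxcl3 and -97 to -87 of Cxcl2. The capitals are the same 11 bases in the 3 genes, a palindrome but for the middle base, and match the consensus on both strands.

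Of 17 CC and other chemokines above the floor 8 were higher (47.1%, beside 2.26% of all genes) and 0 lower, with a median difference of 0.33. Ccl3 and Ccl4, which attract monocytes and T cells and are neighbours on chromosome 11, read 6.32 and 11.28, and 4.07 and 8.59. In Akirin2 KO they read 7.44 and 11.07, and 4.49 and 8.03, so the unstimulated Akirin2 KO levels were above and the LPS levels below those of wild-type. Ccl5, a T cell and monocyte attractant, read 5.71, 10.03 and 11.50 at 0, 2 and 4 h. Cxcl10, an interferon-responsive attractant of T cells, read 3.74, 7.57 and 8.27. The monocyte attractants Ccl2 and Ccl7, also adjacent on chromosome 11, differed by 1.85 and 1.39, the membrane-bound chemokine Cxcl16 by 1.43 and Ccl22 by 1.09. Ccl6 (11.61 and 11.09) and Ccl9 (11.76 and 12.09) differed by less than 2-fold.

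Every measured NF-kB subunit and IkB gene was higher. Of 5 listed subunit genes 4 were measured, Nfkb1 being the one that was not. All 4 passed 2-fold: Nfkb2 (4.52 and 7.18), Rel (3.56 and 6.08), Relb (3.22 and 4.44) and Rela (6.28 and 7.29). The other probe set of Nfkb2 above the floor differed by 0.32. Rela, the main transactivating subunit, passed by little (1.01). All 6 IkB genes were higher, with a median difference of 2.20. Nfkbia, the classical inhibitor that NF-kB re-makes to end its own activity, read 10.63 and 12.38, and its other probe sets differed by 1.59 to 3.16. Nfkbie differed by 3.11 and Bcl3, a nuclear IkB protein, by 2.33. Nfkbiz, the nuclear IkB protein needed for Il6 transcription, read 5.61 and 10.09, with other probe sets at 2.65 to 3.72. Nfkbib differed by 2.07, or 0.64 when probe sets that may cross-hybridise were left out, and Nfkbid by 1.05. In Akirin2 KO the median differences of these lists were 1.26 and 2.36.

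Of 11 feedback and survival genes 7 were higher (63.6%, beside 2.26% of all genes) and 0 lower. Tnfaip3 (A20), a ubiquitin-editing enzyme that shuts down signalling to NF-kB, read 5.43 and 8.77 (5.43 and 8.48 in Akirin2 KO), and its partner Tnip1 7.60 and 10.44. The adaptor Traf1 differed by 3.73, the caspase inhibitor Cflar by 2.44, the ubiquitin ligase Birc3 by 1.66, Tnfaip2 by 1.58 and the stress gene Gadd45b by 1.29. Cyld, a deubiquitinase of the same pathway, differed by 0.14. Beside these, the signal inhibitor Socs3 read 5.73 and 10.19, with other probe sets at 2.60 to 4.30.

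Promoter stretches of 5 further NF-kB matches are shown for higher genes of different roles, a cytokine, a chemokine, both feedback genes named above and a receptor, in the same notation.
Il6: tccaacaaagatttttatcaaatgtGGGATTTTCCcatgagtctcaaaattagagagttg
Cxcl10: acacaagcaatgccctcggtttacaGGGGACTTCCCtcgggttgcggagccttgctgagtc
Tnfaip3: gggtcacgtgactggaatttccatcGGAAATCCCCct
Tnip1: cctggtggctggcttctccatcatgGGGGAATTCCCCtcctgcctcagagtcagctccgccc
Tlr2: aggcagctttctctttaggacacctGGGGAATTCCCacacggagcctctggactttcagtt
Their positions are chr5:30013045-30013104 on the plus strand for Il6, and on the minus strand chr5:92348958-92349018 for Cxcl10, chr10:19015411-19015447 for Tnfaip3, chr11:54962962-54963023 for Tnip1 and chr3:83841746-83841806 for Tlr2. The match begins at base -44 in Il6, -104 in Cxcl10, -12 in Tnfaip3, -58 in Tnip1 and -173 in Tlr2. Cxcl10 and Tnfaip3 hold 1 more match farther upstream.

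Among genes with a RefSeq promoter, the share with an NF-kB consensus in the 250 bases before the start was larger the larger the difference. The consensus, which has degenerate letters and is therefore given by name, was searched on both strands. It was found in 42.9% of 35 genes that were 8-fold or more higher, in 33.8% of 74 genes at 4-fold or more, in 16.5% of 176 genes between 2-fold and 4-fold, in 10.2% of 10410 genes under 2-fold either way and in 9.21% of 228 lower genes. Over all 10888 genes above the floor with a promoter it was found in 10.5%. Counted per promoter, and with genes outside the 13587 included, it was found in 7.25% of 32851 promoters. The class shares are per gene, so the share over genes above the floor is the one to set beside them. The AP-1 motif TGANTCA, on both strands, was in 14.3%, 13.5%, 11.4%, 5.98% and 5.70% of the same classes. It was in 6.12% of genes above the floor and in 6.75% of all promoters. TATAAA on the gene's strand was in 7 of the 35 genes at 8-fold, in 17.6% at 4-fold and, for the other classes, in 6.25%, 5.74% and 5.70%. TATAAA was in 5.83% of genes above the floor and in 7.59% of all promoters. The interferon-stimulated response element, given by name, was in 2.86%, 4.05%, 6.25%, 3.23% and 3.07% (3.28% of genes above the floor, 2.98% of all promoters). TGACGTCA, the cyclic AMP response element, was in 0.0%, 4.05%, 3.41%, 2.79% and 2.19% (2.79% of genes above the floor, 1.55% of all promoters). The CArG box, also given by name, was in 0 of the 74 genes at 4-fold or more. It was in 1.42% of genes above the floor and in 1.47% of all promoters. The median GC content of the searched bases was 52.0% for the 8-fold genes and 59.2% over all genes above the floor, and its part in these shares was not tested. The 250 bases of Il1b, Tnf, Il1a, Ptgs2 and Ccl3 hold no match to the NF-kB consensus. Il1b, Tnf, Il1a and Cxcl3 have TATAAA beginning at -31, -29, -32 and -30. A match is a description of sequence; binding was not measured.

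**Figure D2:**
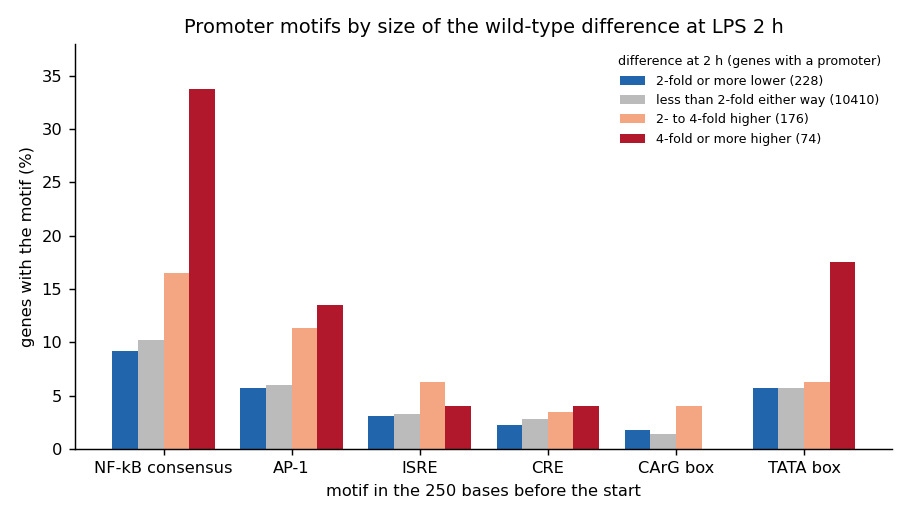
Share of genes (vertical, percent) whose 250 bases before the start hold each of 6 motifs (horizontal), for genes lower, under 2-fold, 2- to 4-fold higher and 4-fold or more higher at 2 h of LPS; the number of genes is in the legend. The NF-kB consensus bar goes from 9.21% in lower genes to 33.8% in the 4-fold group, and the TATA box bar from 5.70% to 17.6%.

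The members of 35 function lists were set beside each other. The lists with the highest medians were the neutrophil-attracting chemokines (2.86), the IkB proteins (2.20), the NF-kB subunits (1.87), the feedback and survival genes (1.58) and the proinflammatory cytokines (1.13). The lowest was that of FoxO targets and cell cycle inhibitors (-0.40). Most lists between these held a few members with large differences among many near 0.

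**Figure D3:**
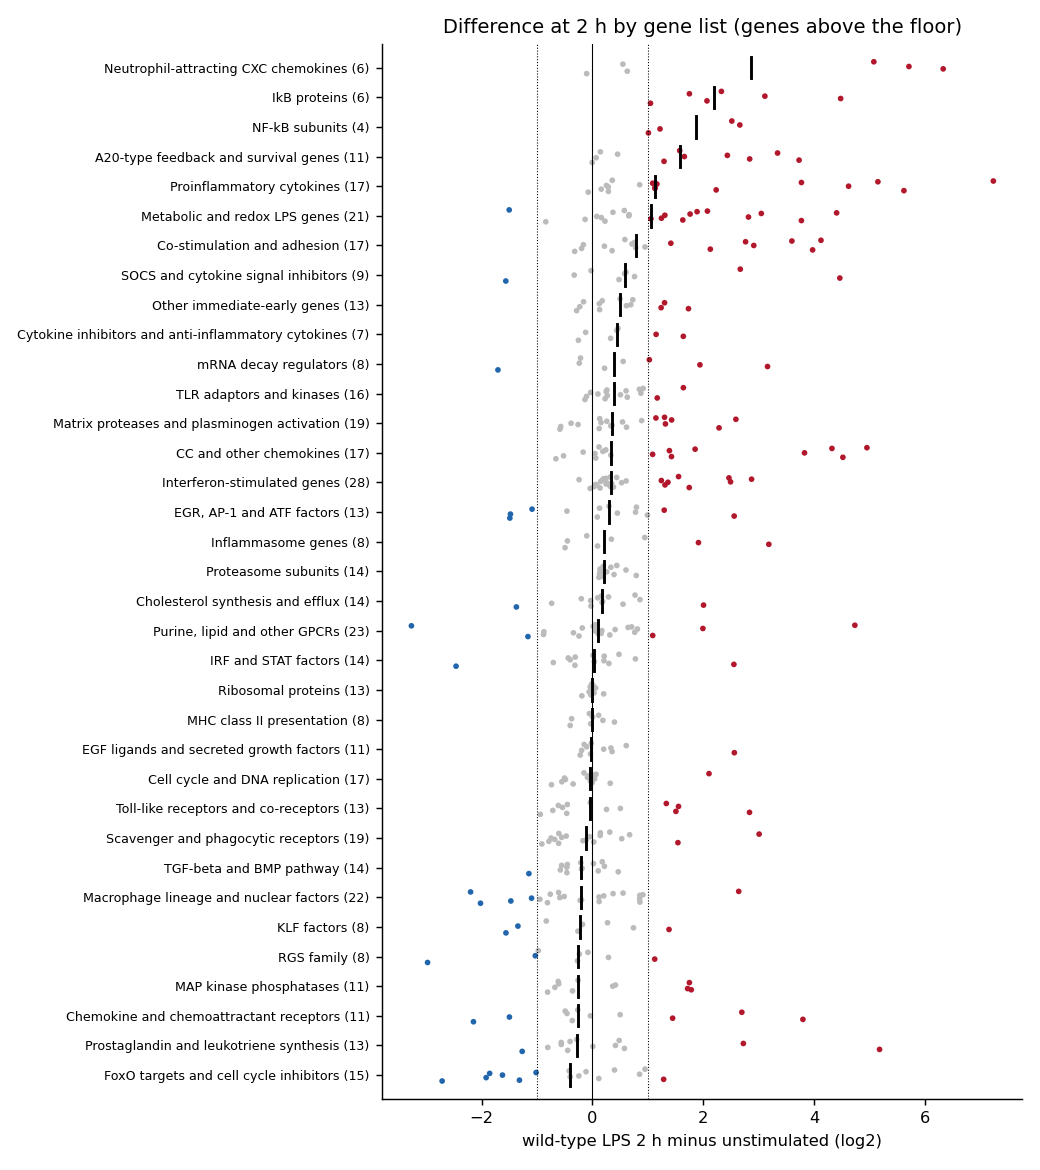
Difference of each list member above the floor (horizontal, log2, LPS 2 h minus unstimulated) for the 35 function lists (vertical, number of genes in brackets), ordered by the list median (black bar). Points past 2-fold are red (higher) or blue (lower), and dotted lines mark 2-fold. Medians run from 2.86 for the neutrophil-attracting chemokines to -0.40 for the FoxO targets and cell cycle inhibitors.

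Immediate-early transcription factors did not move as one group. Of 13 EGR, AP-1 and ATF genes 2 were higher (15.4%, beside 2.26% of all genes) and 3 lower (23.1%, beside 2.19%). Fos, the AP-1 subunit best known for its transient induction, read 9.33, 7.83 and 7.58 at 0, 2 and 4 h, and its partner Jun 8.88, 7.40 and 7.92. Atf3, a repressor of the cytokine response, read 9.56, 8.47 and 9.24. All 3 were lower at 2 h, with smaller differences in Akirin2 KO (-0.68, -0.61 and -0.55). With arrays centred Atf3 was at -0.94. Maff, a small Maf protein, read 3.27 and 5.83, and Fosl2 8.25 and 9.55. Egr1 read 7.93, 8.70 and 7.17, and Egr2 10.59 and 10.89. Of 13 other immediate-early genes the nuclear receptor Nr4a3 (1.73), Ier3 (1.30) and Csrnp1 (1.24) were higher and 0 lower. With probe sets averaged only Ier3 remained, Nr4a3 and Csrnp1 both standing at 0.50. Neither Nr4a3 nor Csrnp1 has another probe set above the floor, so their averages take in probe sets below it.

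Regulators that limit signalling and messenger stability were mixed. Dusp4, Dusp5 and Dusp16, phosphatases that switch off MAP kinases, were higher by 1.78, 1.75 and 1.72, while Dusp1 read 10.59 and 11.00 and the median of the 11 phosphatases was -0.26. Among 8 mRNA decay regulators Zc3h12c (3.16), the endonuclease gene Zc3h12a (1.94) and Zfp36 (1.03), which binds AU-rich cytokine messages, were higher. Zfp36l2, a relative of Zfp36, read 9.41 and 7.70; averaged over probe sets Zc3h12a was at 0.93 and Zfp36l2 at -0.76. Cish, like Socs3 an inhibitor of cytokine receptors, differed by 2.67, and Socs6 by -1.56 (-0.86 averaged). Of 8 KLF factors Klf7 was higher (1.38), and Klf4 (7.79 and 6.45) and Klf9 (8.53 and 6.97) were lower; Klf9 was at -0.60 averaged.

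Some interferon-stimulated genes were higher at 2 h. Of 28 above the floor 8 were higher (28.6%, beside 2.26% of all genes) and 0 lower, with a median of 0.33. With probe sets averaged 5 were higher. Oasl1, which inhibits Irf7 translation, read 4.00, 6.87 and 8.09 at 0, 2 and 4 h, and the RNA sensor Ifih1 6.98, 9.47 and 10.15. Ifit1, which binds foreign RNA caps, read 6.14, 8.61 and 10.78, and Mx1, an antiviral GTPase, 4.48, 6.23 and 8.87. The others past 2-fold were Xaf1 (1.55), Rtp4 (1.36), Gbp2 (1.31) and Rsad2 (1.24). Xaf1, Rtp4 and Rsad2 are the 3 under 2-fold with probe sets averaged (0.75, 0.96 and 0.94).

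A further group of interferon-stimulated genes was near its unstimulated level at 2 h and above it on the 4 h array. Ifit2 read 4.36, 4.12 and 7.84, Ifit3 3.29, 3.56 and 6.39, Oasl2 5.15, 5.21 and 8.36, and Cmpk2 4.28, 4.53 and 7.64. The list's median against the shared unstimulated array was 0.33 at 2 h and 2.69 at 4 h. Among 14 IRF and STAT genes Irf1, a target of NF-kB, read 5.49, 8.04 and 8.36. Irf8, needed for monocyte and dendritic cell development, was lower, at 6.68, 4.22 and 4.47. Irf7 read 3.63, 3.92 and 5.36.

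**Figure D4:**
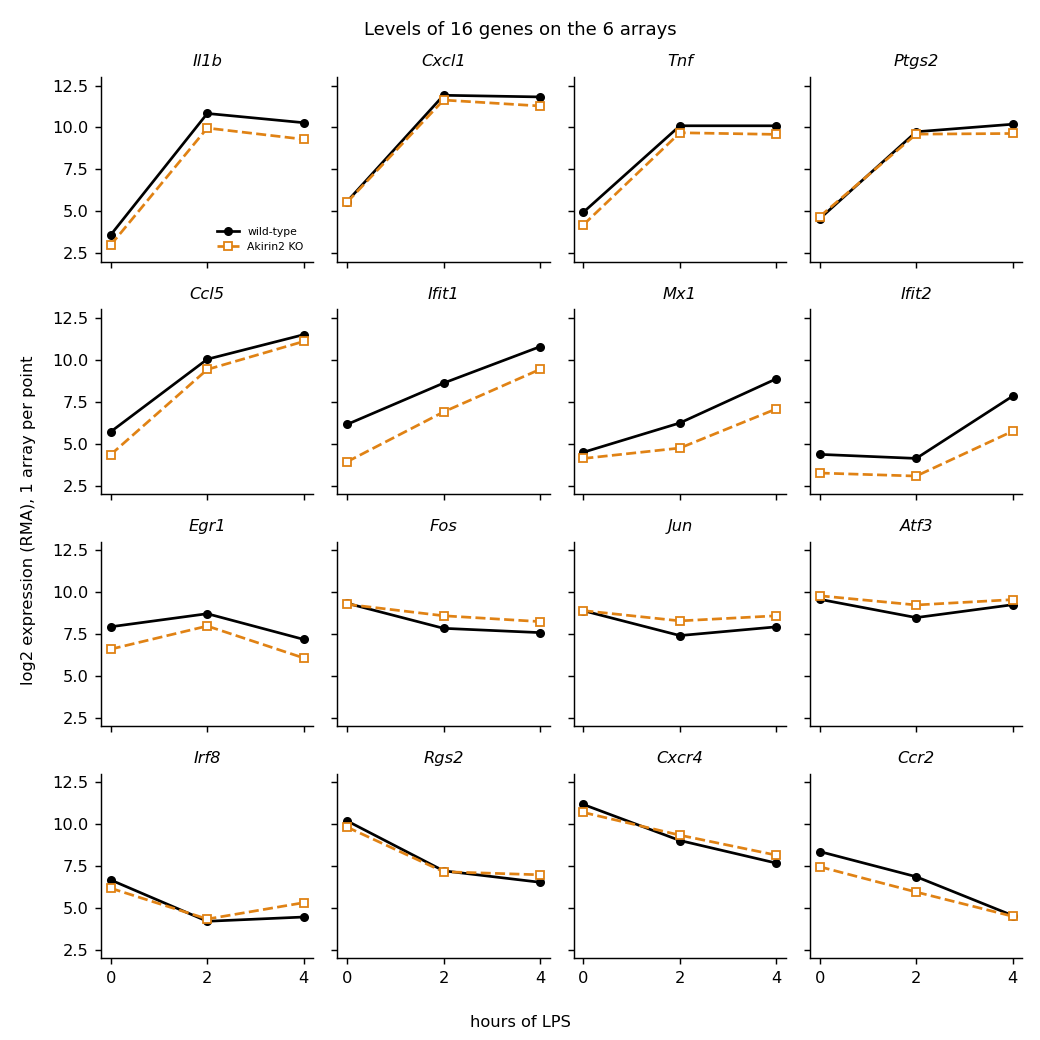
Levels of 16 genes (vertical, log2 RMA) against hours of LPS (horizontal) in wild-type (black) and Akirin2 KO (orange) macrophages, 1 array per point, with no error since no condition was repeated. Il1b, Cxcl1, Tnf and Ptgs2 are above their unstimulated level at both 2 and 4 h, Ifit2 is at 4.12 at 2 h and 7.84 at 4 h in wild-type, and Cxcr4 and Ccr2 are lower at 2 h and lower again at 4 h.

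Of 13 Toll-like receptors and co-receptors 4 were higher (30.8%, beside 2.26% of all genes) and 0 lower, with a median difference of -0.04. Tlr2, the receptor of bacterial lipopeptides, read 7.76 and 10.60, and its partner Tlr1 6.52 and 8.02. Cd14, which hands LPS to the receptor, read 9.36 and 10.92, and Tlr7, a sensor of RNA, 5.93 and 7.26. The LPS receptor Tlr4 (6.86 and 6.39) and its co-receptor Ly96 (5.72 and 5.10) differed by -0.46 and -0.62. Of 16 adaptors and kinases 2 were higher (12.5%, beside 2.26% of all genes), the inhibitory kinase Irak3 (1.64) and the adaptor Myd88 (1.17). With arrays centred Ikbke and Irak2 joined them. Among 8 inflammasome genes the sensor Nlrp3 read 5.43 and 8.62 and Casp4, which binds LPS in the cytosol, 5.15 and 7.06. Casp1, the protease that matures the Il1b product, read 8.02 and 8.11.

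Of 17 genes of co-stimulation and adhesion 7 were higher (41.2%, beside 2.26% of all genes) and 0 lower, or 5 with probe sets averaged and 5 without probe sets that may cross-hybridise. Icam1, a ligand of leukocyte integrins, read 6.65 and 10.25, Cd69 3.26 and 7.39, Cd83 7.90 and 10.67, and the co-stimulatory receptor Cd40 6.58 and 8.71. Icosl, a ligand of a T cell co-receptor, read 5.79 and 9.77, but its other probe set above the floor differed by 0.10. Vcam1 (2.91) and Itga5 (1.42) also had probe sets that disagreed, and averaged they stood at 0.97 and 0.45. Cd40 was at 0.91 without probe sets that may cross-hybridise. Cd80 and Cd86, the ligands of Cd28, differed by 0.22 and -0.32.

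Receptors for chemoattractants differed in both directions. The chemerin-binding receptor Ccrl2 read 5.30 and 9.10, the formyl peptide receptor Fpr2 7.84 and 10.54, and Cmklr1 3.43 and 4.87. Cxcr4, the receptor that holds leukocytes in tissues producing its ligand, read 11.18, 9.03 and 7.68 at 0, 2 and 4 h. Ccr2, the receptor that brings monocytes from the blood, read 8.37, 6.87 and 4.56. In Akirin2 KO Cxcr4 differed by -1.36 and Ccr2 by -1.51. Cmklr1 and Ccr2 stood at 0.86 and -0.66 with probe sets averaged. Among 23 other receptors of this superfamily Gpr84, which senses medium-chain fatty acids, read 4.10 and 8.84 and Gpr132 3.25 and 5.24, while Lpar6, a receptor of lysophosphatidic acid, read 8.41 and 5.14. Lpar1, for the same ligand, read 3.97 and 5.06. Gpr183, an oxysterol receptor, differed by -1.17 in wild-type and 0.14 in Akirin2 KO. With probe sets averaged Lpar1 and Gpr183 were both under 2-fold in wild-type (0.93 and -0.90). Ch25h, the enzyme that starts synthesis of that receptor's ligand, read 3.16 and 5.17.

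RGS proteins, which shorten signalling by such receptors, were mostly lower or near 0. Rgs2 read 10.20, 7.22 and 6.54 at 0, 2 and 4 h, and its other probe sets differed by -3.11 and -2.90. Rgs1, its neighbour on chromosome 1, read 8.14 and 7.11 (-0.88 with arrays centred), and Rgs18 6.35 and 5.37. Rgs3 was higher by 1.12, or 0.29 averaged.

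Of 13 genes of prostaglandin and leukotriene synthesis 2 were higher and 1 lower, with a median difference of -0.28. Ptgs2 (cyclooxygenase 2), which makes the precursor of prostaglandins, read 4.56 and 9.74, with its other probe set at 1.32, and Ptges, which makes prostaglandin E from it, 4.23, 6.95 and 8.79. Hpgd, which degrades prostaglandins, read 5.93 and 4.66. Among 21 metabolic and redox genes 11 were higher and 1 lower, with a median of 1.06. Acod1, which makes itaconate, read 7.73 and 12.14 (6.76 and 11.96 in Akirin2 KO). The cystine and arginine transporters Slc7a11 and Slc7a2 differed by 3.77 and 2.82, Sod2, the mitochondrial superoxide dismutase, by 2.08 and Gch1, which makes the cofactor of nitric oxide synthase, by 1.89. Marcksl1 differed by 3.05, Slc2a6 by 1.76, Arg2 by 1.63, Lcn2 by 1.31, Txnrd1 by 1.25 (0.80 averaged) and Srxn1 by 1.06. With probe sets averaged Txnrd1 and Srxn1 were under 2-fold, leaving 9 higher genes in the list. The glycolytic regulator Pfkfb3 was lower at -1.50, or -0.68 averaged. Nos2 was below the floor on all arrays. Arg1, often used as a mark of alternative activation, read 8.98 and 8.14.

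Of 19 genes of matrix proteolysis and coagulation 6 were higher (31.6%, beside 2.26% of all genes): the protease inhibitors Timp1 (2.59) and Serpinb2 (2.29), the membrane protease Mmp14 (1.43), tissue factor F3 (1.32), the protein C receptor Procr (1.30) and coagulation factor F10 (1.15). Mmp14 and F10 were at 0.78 and 0.94 with probe sets averaged. Of 11 growth factor genes Ereg, a ligand of the epidermal growth factor receptor, was the one past 2-fold (9.09%, beside 2.26% of all genes). It read 3.33 and 5.89, against 3.92 and 4.55 in Akirin2 KO. The pattern recognition receptor Clec4e read 8.43 and 11.44 and the oxidised lipoprotein receptor Olr1 differed by 1.54; the other 17 scavenger and phagocytic receptors above the floor differed by less than 2-fold, Mertk (-0.91) the most.

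The 15 lowest genes were Lpar6, Rgs2, C130050O18Rik, Usp2, Fbxo32, Arrdc3, Tifab, Trim65, Irf8, Rnf144b, Gpr146, E330020D12Rik, Sec14l1, Tmem86a and Crebrf, from -3.27 to -2.27. Tifab, an inhibitor of signalling through Traf6, read 5.51 and 2.86 (5.65 and 2.91 in Akirin2 KO); both LPS levels were below the array median, where differences are compressed. Its other probe set differed by -0.95 in wild-type. Fbxo32, the substrate receptor of a ubiquitin ligase best known from muscle wasting, read 7.17 and 4.45, with other probe sets at -2.57 and -2.06. The deubiquitinase gene Usp2 read 6.25 and 3.53, and the ubiquitin ligase genes Trim65 and Rnf144b 6.28 and 3.78, and 10.87 and 8.45. Arrdc3, an alpha-arrestin, read 6.93 and 4.26. Crebrf (8.30 and 6.03) and Gpr146 (6.21 and 3.80) had probe sets that disagreed, with averages of -1.28 and -0.96.

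Sec14l1 was the member of the 15 with the largest gap between genotypes. It read 7.42 and 5.07 in wild-type and 5.94 and 5.58 in Akirin2 KO, so the LPS levels lay close together and the unstimulated levels did not.

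Of 22 transcription factors of the macrophage lineage 4 were lower (18.2%, beside 2.19% of all genes) and 1 higher. Cebpa, a factor of myeloid differentiation, read 10.05 and 8.03, the homeobox gene Hhex 6.84 and 4.64, Maf 9.38 and 7.91 and the lipid-sensing receptor Pparg 6.37 and 5.27 (-0.95 with arrays centred). Ets2 was higher, at 8.29 and 10.93. Spi1, the master factor of the lineage, read 6.84 and 7.21. With arrays centred 5 of the 22 were higher, since Cebpb, Cebpd, Id3 and Zeb2 were between 0.85 and 0.91 before centring. Among 14 genes of the TGF-beta and BMP pathway the co-repressor Ski was lower (7.70 and 6.55).

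The mixed list of FoxO targets and cell cycle inhibitors had the lowest list median. Of 15 genes 6 were lower, beside 2.19% of all genes, and 1 higher. Foxo3, a factor that kinases of growth signalling keep out of the nucleus, read 10.05 and 8.13, with its other probe set at -1.90. Beside Fbxo32, its list held Trp53inp1 (9.07 and 7.22), Klhl24 (7.66 and 6.03), the stress sensor Sesn1 (7.64 and 6.32) and the cell cycle inhibitor Cdkn1b (8.43 and 7.41). Averaged over probe sets Foxo3, Fbxo32 and Sesn1 were the 3 lower genes of the list. Cdkn1a (p21), another cell cycle inhibitor, was higher (8.73 and 10.01). Under 2-fold, Ccng2 and Bcl6 of the same list differed by 0.95 and 0.85, and Foxo1 and Pink1 by -0.42 and -0.40. Irs2, near the array median, differed by 0.40. With arrays centred 5 of the 15 were lower and 2 higher.

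Other cell functions were near their unstimulated level on the 2 h array. Ribosomal protein genes (13) differed by -0.19 to 0.20, proteasome subunits (14) by 0.12 to 0.79 and genes of antigen presentation on MHC class II (8) by -0.40 to 0.40, with 0 past 2-fold in each. Of 17 cell cycle genes Mki67 alone passed 2-fold (5.88%, beside 2.26% of all genes). It read 5.45 and 7.56, and 4.93 and 7.22 in Akirin2 KO, while Top2a, Cdk1 and Ccna2 differed by 0.32, -0.09 and -0.01. In the cholesterol list Abcg1, which exports cholesterol, read 9.31 and 7.93, and Ch25h was the other gene past 2-fold.

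The second pair of arrays, from Akirin2 KO cells, had 332 genes higher (2.44%) and 123 lower (0.905%) at 2 h. Of the 307 genes higher in wild-type 306 had a positive difference there. The other one was Il12a, whose levels were near the array median. At 2-fold 241 genes (1.77% of all) were higher on both pairs, which is 78.5% of the wild-type and 72.6% of the Akirin2 KO list. The median difference of the 307 genes was 1.51 in wild-type and 1.42 in Akirin2 KO. Since the genes were chosen on the wild-type arrays, a smaller value on the other pair is favoured by the choice.

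The lower genes recurred less at 2-fold, also between probe sets of a gene on the wild-type arrays. There 166 of the lower genes had other probe sets above the floor, and for 45 another was 2-fold lower. Of the higher genes 164 had others, and for 77 another was 2-fold higher. The median difference of those other probe sets was -0.43 for lower genes and 0.80 for higher ones. Of the 297, 279 had a negative difference in Akirin2 KO, and 74 (0.545% of all) reached 2-fold, 24.9% of the wild-type and 60.2% of the Akirin2 KO list. Their median difference was -1.22 in wild-type and -0.68 in Akirin2 KO. Before LPS 242 of the 297 had a higher level in wild-type than in Akirin2 KO, with a median gap of 0.31 (0.07 over all genes), and at 2 h the median gap was -0.27 (0.00 over all genes). Of the 307 higher genes 106 had a lower unstimulated level in wild-type, with median gaps of 0.17 at 0 h and 0.30 at 2 h. For the lower genes the choice on the wild-type arrays favours gaps of this kind. For the higher genes it favours a negative gap at 0 h and a positive one at 2 h, whereas their gap was positive at both times. All these gaps are given as a description. The Actb 3′ minus 5′ levels given above differed between the genotypes at both times, and their part in these gaps was not tested. Across the 13587 genes the differences of both pairs had a Pearson r of 0.71, a description over genes, which are not independent of each other. No gene was 2-fold higher on one pair and 2-fold lower on the other.

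**Figure D5:**
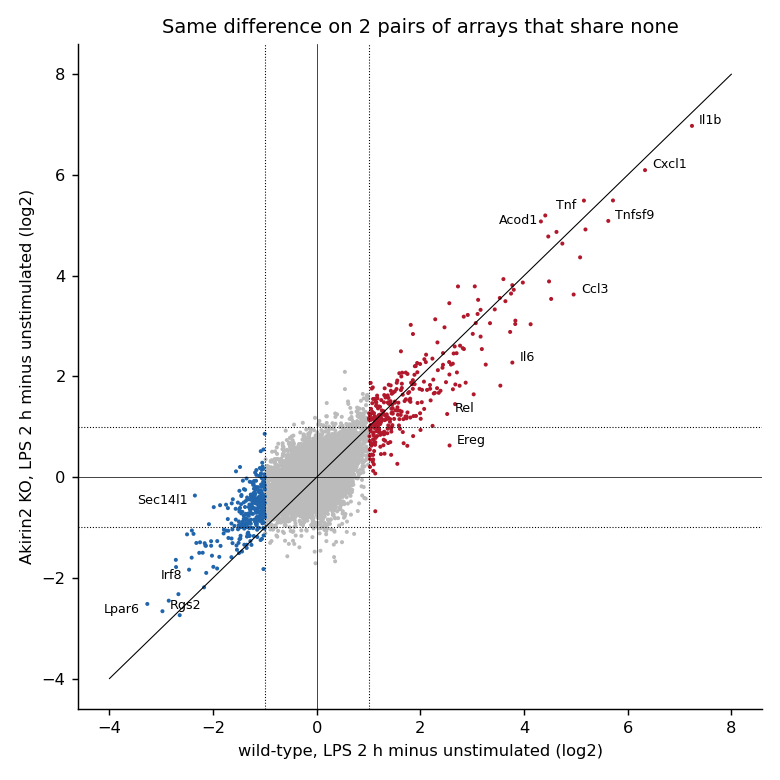
Difference at 2 h of LPS (log2, LPS minus unstimulated) of 13587 genes in wild-type (horizontal) against Akirin2 KO (vertical), 2 pairs of arrays with none in common; red and blue mark the genes 2-fold higher or lower in wild-type, dotted lines 2-fold and the diagonal equal differences. The higher genes lie along the diagonal up to Il1b at 7.24 and 6.97, most lower genes lie between the diagonal and 0, and Sec14l1 is at -2.35 and -0.37.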

How the data were processed

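Total RNA of 6 macrophage samples, 1 per condition, was amplified, biotin-labelled and hybridised to Affymetrix mouse arrays. Per the submitters' processing notes, RMA gave the deposited log2 values of each probe set; its version is not given in the sources used here. They ran from 2.26 to 14.2 over 45101 probe sets, with array medians of 3.18 to 3.23. The platform annotation gave 34958 probe sets 1 symbol, 932 several and 9211 none, and the last 2 kinds were left out of gene counts. An array has no read depth; the number of arrays limits the precision.

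Differences of single arrays were computed in Python 3.11.15 with pandas 2.3.3 and counted at 2-fold. On simulated shifts the counting was checked. Genes named are the 15 largest each way, members of 35 function and 10 cell type lists, Akirin2, and genes at the floor. The members and lists were chosen with earlier results of these data known. Motifs were searched in RefSeq promoters (GRCm38.p6) in the 250 bases before the start, and a gene with several listed promoters counted if any held the motif. Other floors, probe set rules, scalings and fold sizes were tried.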

Additional observations from a re-analysis of the deposited data

Results flagged for a closer look

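Among 6130 probe sets above the floor that carry no single gene symbol, and so enter no comparison above, 70 were higher and 65 lower by 2-fold or more at 2 h in wild-type. Of these, 42 and 15 were also 2-fold higher or lower in Akirin2 KO. Over the 13587 genes counted above, 307 (2.26%) were higher and 297 (2.19%) lower. In both genotypes these were 241 (1.77%) and 74 (0.545%). The counts of probe sets were not tested against these shares. The 2 largest differences among these probe sets are given because the gene counts leave them out. Probe set 1451567_a_at read 3.51 unstimulated and 7.15 after 2 h, a difference of 3.64 (3.02 in Akirin2 KO), and 7.47 at 4 h. Probe set 1437111_at read 5.39 and 8.64, a difference of 3.26 (3.04 in Akirin2 KO), and 8.94 at 4 h. No other result met a rule for a closer look. The other rule asked for a gene 2-fold higher in 1 genotype and 2-fold lower in the other, and no gene met it.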

How the results depend on the processing

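The main counts were 307 higher and 297 lower genes, with 241 and 74 past 2-fold in both genotypes. At 1.5-fold they were 731, 1252, 499 and 338, and at 4-fold 91, 26, 64 and 6. With a gene's probe sets averaged the lower genes numbered 151, and 36 in both genotypes (fewer extreme values, since probe sets are pooled), and with arrays centred 191 genes were lower. The other alternatives (a floor at the 75th percentile or none, no cross-hybridising probe sets, a second quantile normalization) left these counts within 1.5 times. The NF-kB share of 21.6% at 2-fold was 33.8% at 4-fold and 19.6% for genes with 1 listed promoter, both settings chosen after seeing the data. Of 150 named genes past 2-fold, 29 were under it with probe sets averaged, 4 with arrays centred and 4 without cross-hybridising probe sets. None changed sign under any alternative. Averages include probe sets below the floor, so not all of the 29 had probe sets above it that disagree. List medians that moved by over 1.5-fold did so with the higher floor, which leaves fewer genes: 2.23 for cytokines, 5.40 for neutrophil-attracting chemokines, 1.24 for other chemokines, 1.42 for co-stimulation, -0.98 for the RGS family and -0.59 for T and NK cell markers, where 1 gene was left. No paired analysis was possible because each condition has 1 array and the labels carry no replicate numbers. With 1 array a side, no error can be given for any difference, and levels near the array median, where signal and background are close, give compressed differences.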

Other observations

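Some genes higher at 2 h of LPS lay beside another higher gene. Of the 307, 32 (10.4%) had an adjacent gene, among the 13556 genes above the floor with a RefSeq place, that was higher too, and of the 296 lower genes with a place 28 (9.46%) had a lower neighbour. Of all 13556 placed genes 4.40% had a higher neighbour and 4.30% a lower one. The neighbours were found after the values were seen. Beside the chemokine clusters described above, higher neighbours included Il1a and Il1b on chromosome 2, the heat shock genes Hspa1b and Hspa1a on chromosome 17, Slc7a11 and Noct on chromosome 3 and a run of 3 genes, Kpna3, Spryd7 and Trim13, on chromosome 14. Lower neighbours included Cebpg and Cebpa on chromosome 7, and Rgs2 and Rgs1 on chromosome 1. Gpr146 and C130050O18Rik, both among the 15 lowest genes, are neighbours on chromosome 5. Hspa1a and Hspa1b are near-identical copies, so their probe sets may read the same transcripts.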
